A study of Mus musculus with 6 samples.

Results

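The genes described here are 36 nuclear genes of respiratory complexes III and IV: 9 subunits of complex III, the 2 cytochromes c, 16 subunits of complex IV in widespread, testis, muscle and lung versions, the supercomplex factor Cox7a2l and 8 assembly factors. They were listed by name and found as the probe sets annotated to a listed gene and no other. 35 of the 36 had such a probe set, and Cox7b had none here. These 35 genes carry 74 of the 45037 probe sets tested and are 35 of the 18194 genes measured. A gene is represented by its brightest probe set, the one with the highest mean over all 6 arrays, and for Uqcr10 every probe set is shown. The genes were chosen by name with the log2 differences of this same comparison known, among them the low reading of a Uqcr10 probe set, so the differences of the listed genes are given with their standard errors and 95% intervals as a description and not as tests.

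RNA came from freshly dissected testes of adult mice of a C57BL/6 x CBA hybrid background. Of the 6 arrays, 3 were from wild-type mice and 3 from mice transgenic for a constitutively active mutant of DREAM, and the submitters describe the 3 of each genotype as independent biological replicates. DREAM, the product of Kcnip3, is a calcium-binding repressor of transcription. The promoter that drives the transgene, the number of founder lines and the ages in weeks are not given in the sources used here. In whole testis, fewer cells of a type and less RNA per cell cannot be told apart. Values are log2 intensities, in which a difference of 1 is a doubling, and they compare the same probe set between arrays; brightness is not compared between genes. Precision is limited by the 3 arrays of each genotype.

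Complex III passes electrons from ubiquinol to cytochrome c, and complex IV, cytochrome c oxidase, passes them on to oxygen while pumping protons. Male germ cells are known for using their own versions of several parts: Cyct, the testis cytochrome c, beside the somatic Cycs, and Cox6b2, Cox7b2 and Cox8c in place of Cox6b1, Cox7b and Cox8a. Complex IV also has muscle versions, Cox6a2 and Cox7a1, and a lung version, Cox4i2. Copper and heme have to be delivered to complex IV by dedicated factors before it can work.

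Because DREAM binds DNA at downstream regulatory elements with the core GTCA, the 250 bases before the RefSeq start (assembly GRCm38.p6) are printed for the genes with a called probe set, Uqcr10 and Cmc2, and for the pair of cytochromes c. Capitals mark GTCA on either strand, which includes the full cyclic AMP response element TGACGTCA.
Uqcr10, chr11:4704345-4704594, minus strand: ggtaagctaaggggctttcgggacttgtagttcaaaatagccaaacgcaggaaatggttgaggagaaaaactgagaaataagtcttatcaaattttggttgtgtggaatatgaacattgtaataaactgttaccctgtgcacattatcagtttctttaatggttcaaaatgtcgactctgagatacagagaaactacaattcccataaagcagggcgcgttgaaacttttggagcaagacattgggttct
Cmc2, chr8:116921437-116921686, minus strand: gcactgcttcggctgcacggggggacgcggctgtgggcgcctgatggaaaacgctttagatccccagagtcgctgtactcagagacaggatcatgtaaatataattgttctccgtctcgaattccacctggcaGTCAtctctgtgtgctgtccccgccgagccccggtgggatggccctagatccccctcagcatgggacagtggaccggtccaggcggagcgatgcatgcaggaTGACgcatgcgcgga
Cyct, chr2:76360454-76360703, minus strand: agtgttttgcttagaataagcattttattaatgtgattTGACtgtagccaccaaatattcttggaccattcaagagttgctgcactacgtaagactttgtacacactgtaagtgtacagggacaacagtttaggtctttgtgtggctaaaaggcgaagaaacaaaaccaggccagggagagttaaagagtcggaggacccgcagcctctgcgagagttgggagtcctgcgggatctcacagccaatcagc
Cycs, chr6:50566570-50566819, minus strand: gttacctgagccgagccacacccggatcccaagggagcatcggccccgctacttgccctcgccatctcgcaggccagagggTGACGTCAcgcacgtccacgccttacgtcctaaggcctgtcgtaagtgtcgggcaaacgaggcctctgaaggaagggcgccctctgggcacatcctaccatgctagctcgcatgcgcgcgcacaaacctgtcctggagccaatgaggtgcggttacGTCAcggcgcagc
The window of Uqcr10 held 0 matches to GTCA, that of Cmc2 2, that of Cyct 1 and that of Cycs 3. Promoter windows were found for 26 of the 36 genes, and 22 of these (84.6%) held GTCA, against 80.2% of all 32851 windows of that length, so most windows hold so short a core. The element TGACGTCA was in 2 of the 26, Cycs and Uqcrfs1, and in 1.55% of all windows. These are matches of letters, not measured binding. Bases after the start were not searched, so a count of 0 does not speak to elements there.

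As a set, the genes of complexes III and IV read nearly alike in the genotypes. By brightest probe set 1 of 35 was past an adjusted p of 0.05, Cmc2, which was higher (limma, Benjamini-Hochberg over all probe sets; 0.264% of all genes measured passed as higher and 0.352% as lower). No gene passed as lower by that probe set, and 2 of 35 (5.71%), Cmc2 and Cox7a1, had an unadjusted p under 0.05, beside 7.48% of all genes. Of the 35, 21 read above 0 and 14 below, with a median of 0.03, where all 18194 genes had a median of 0.02. In 33 of the 35 the difference was under 0.2 in size (94.3%, and 85.6% over all genes). The intervals of the 34 genes other than Cmc2 all lay within 0.5 of 0 on the log2 scale. The groups did not overlap for 5 of the 35, namely Cmc2, Cox6b2, Cox8c, Cox7a1 and Uqcrb, beside 12.5% of all genes. Among all 74 probe sets, 2 were called, beside 0.444% of all probe sets. They were 1 of Cmc2, higher as 0.171% of all were, and 1 of Uqcr10, lower as 0.273% were. Since the genes were chosen with these results known, nothing is read from these shares.

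**Figure D1:**
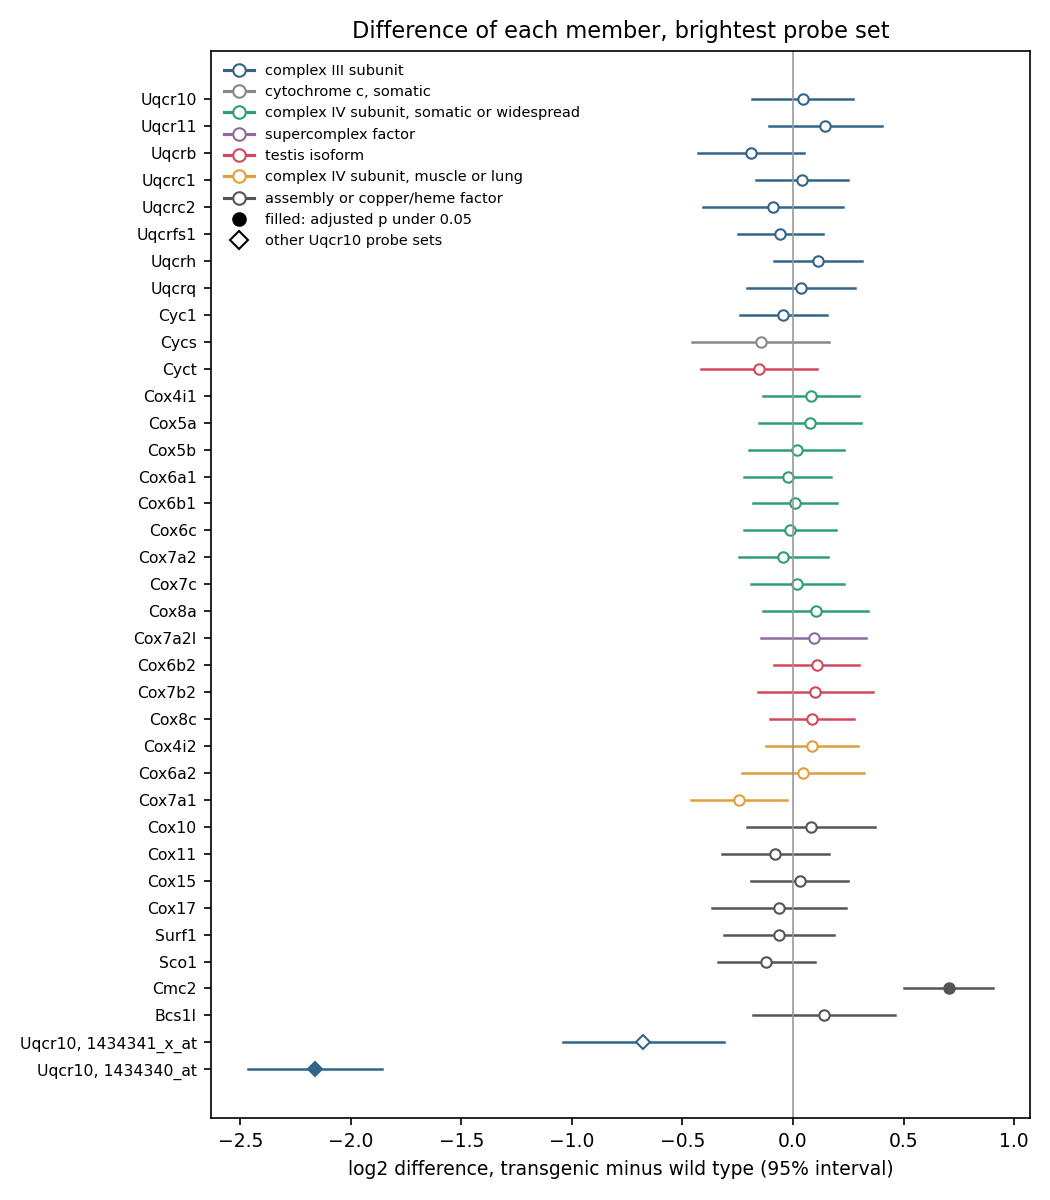
Log2 difference (transgenic minus wild type) of each of the 35 measured genes by its brightest probe set, as points with 95% intervals coloured by role, with the remaining Uqcr10 probe sets as diamonds at the bottom; filled symbols passed an adjusted p of 0.05. The genes lie in a narrow band around 0, with Cmc2 at 0.70 to the right and a Uqcr10 probe set at -2.16 far to the left.

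The median log2 value of an array was between 5.99 and 6.08. In a principal component analysis, wild type replicate 2 stood apart from the rest: its score on the leading axis (38.9% of the variance) was 42.2, and those of the remaining 5 arrays were -23.3 to 5.27. The Gapdh 3' minus 5' control difference, a measure of RNA integrity, was 0.06 to 0.16 in wild type and 0.21 to 0.33 in transgenic testis, without overlap, while that of beta-actin was 0.41 to 0.50 and 0.47 to 0.53. Since the Gapdh difference separates the genotypes, its part and that of genotype cannot be told apart in these 6 arrays. Values with it as a covariate, here and below, show how far the estimates move and are not a correction. With the Gapdh difference as a covariate, the median of the 35 genes was 0.085, the median SE was 0.18, and 15 of the 35 differences turned sign. The values then ran from -0.38 (Cox6a2) to 0.56 (Cox10), 0 genes were called by limma, and neither Cmc2 (0.55, SE 0.16) nor the Uqcr10 probe set (-2.20, SE 0.27) passed.

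Uqcr10, a small subunit of complex III on chromosome 11, gave 3 answers with its 3 probe sets. Its brightest, 1424364_a_at, read 10.92, 10.88 and 10.82 in wild type and 10.76, 11.06 and 10.93 in transgenic testis, so the groups overlapped and the difference was 0.04 (SE 0.10, 95% interval -0.19 to 0.27). The second, 1434341_x_at, read 8.79, 8.80 and 9.06 in wild type and 7.98, 8.05 and 8.59 in transgenic testis. All 3 transgenic arrays lay below all 3 wild-type arrays there, with a difference of -0.68 (SE 0.16, 95% interval -1.04 to -0.31) that was not among the calls.

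The dimmest of the 3, 1434340_at, read 7.91, 8.30 and 8.01 in wild type and 5.76, 5.85 and 6.13 in transgenic testis. The difference was -2.16 (SE 0.13), a 4.47-fold lower intensity, and this probe set was among the 123 called lower. Its transgenic mean of 5.91 lies below the array medians of 5.99 to 6.08, and no detection call comes with the values. The transgenic reading is thus not shown to lie above background, which limits what the fold can say. All 3 wild-type arrays lay far above all 3 transgenic arrays. The probe set kept its call without each of the 6 arrays in turn, at differences from -2.27 to -2.05. The 2 probe sets that read lower were designed on the same transcript sequence in the platform annotation, and 1424364_a_at, which read 0.04, on another. A name ending in _x_at marks probes that can match several transcripts, and one ending in _a_at probes shared by transcripts of 1 gene. Averaged over its 3 probe sets, Uqcr10 read -0.93 (SE 0.10) and was called, but that mean describes none of the 3. The gap of 2.20 between its highest and lowest difference was the widest of the 22 listed genes with several probe sets, and 4 of all 9009 such genes, Uqcr10 included, had a gap at least as wide. The median gap over the 9009 was 0.16. Uqcr10 was listed with its low reading known, so the rank of its gap is a description and not a test.

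**Figure D2:**
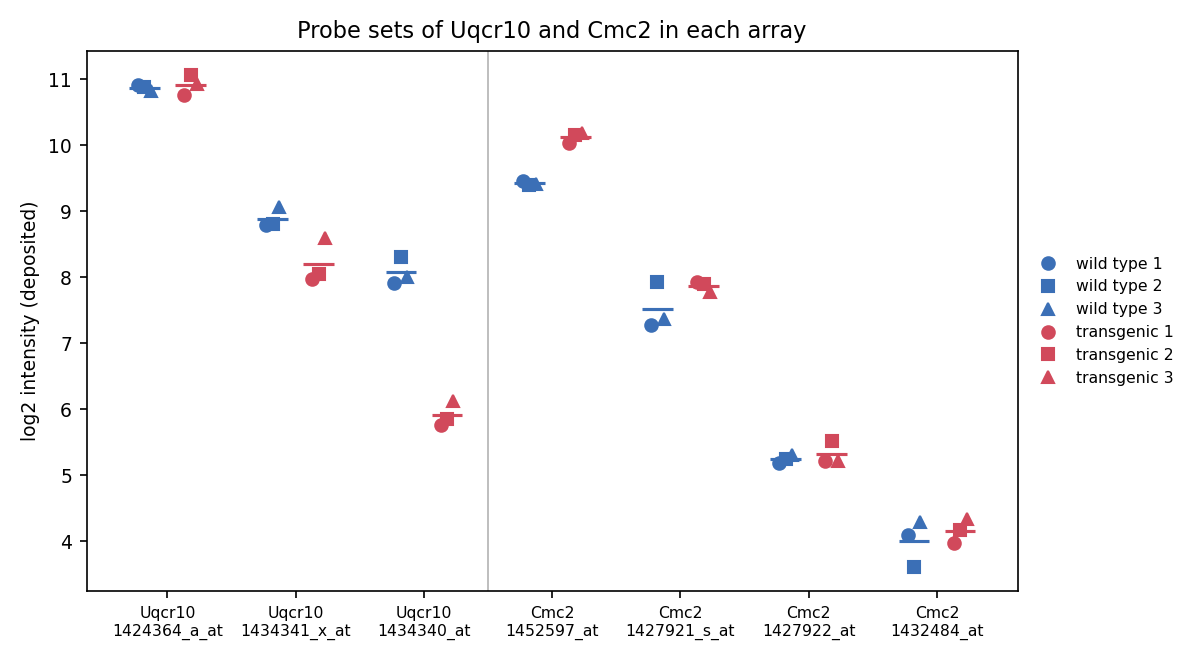
Deposited log2 intensity (vertical axis) of the 3 Uqcr10 and 4 Cmc2 probe sets, with a point for each array, blue for wild type and red for transgenic, the shape giving the replicate number, and a line at each group mean. Uqcr10 falls apart into a flat, an intermediate and a strongly lowered probe set, and Cmc2 is higher in every transgenic array with its brightest probe set.

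Cmc2, a mitochondrial intermembrane-space protein linked to the biogenesis of complex IV, lies on chromosome 8. Its brightest probe set, 1452597_at, read 9.46, 9.40 and 9.41 in wild type and 10.03, 10.16 and 10.19 in transgenic testis. The groups were well apart, and the difference was 0.70 (SE 0.09, 95% interval 0.50 to 0.90), a 1.63-fold higher intensity. The next, 1427921_s_at, read 7.28, 7.92 and 7.37 against 7.93, 7.90 and 7.78. Here wild type replicate 2 reached the transgenic values, and the difference was 0.35 (SE 0.16). The dim 1427922_at and 1432484_at read 0.07 (SE 0.11) and 0.16 (SE 0.17), with overlapping groups. The call of Cmc2 was lost without wild type replicate 3 (0.70, SE 0.11), transgenic replicate 2 (0.69, SE 0.10) or transgenic replicate 3 (0.67, SE 0.10), and when its probe sets were averaged (0.32, SE 0.07). It was as large without wild type replicate 2 (0.69, SE 0.10), and called.

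The other subunits of complex III read close to 0, and none was called. Uqcrb, a ubiquinone-binding subunit, had the lowest reading of the group. It read 13.11, 13.11 and 13.08 in wild type and 13.03, 12.70 and 13.00 in transgenic testis, all below wild type, with a difference of -0.19 (SE 0.11, 95% interval -0.43 to 0.05). Its other probe set read -0.06. Uqcr11, another small subunit, had the highest, at 9.45, 9.65 and 9.47 against 9.63, 9.86 and 9.52, overlapping, with a difference of 0.15 (SE 0.11, 95% interval -0.11 to 0.40). The core proteins Uqcrc1 and Uqcrc2 read 0.04 and -0.09 (SE 0.09 and 0.14), and 0.17 and 0.34 with the Gapdh covariate (SE 0.17 and 0.23). The redox-active subunits, the Rieske iron-sulfur protein Uqcrfs1 and cytochrome c1, Cyc1, read -0.06 and -0.04 (SE 0.08 and 0.09). Uqcrh, the hinge protein that sits beside cytochrome c1, read 0.11 (SE 0.09). Uqcrq read 0.04 (SE 0.11) with its brightest probe set. Its 1452613_at and 1437134_at read 0.19 (SE 0.13) and -0.14 (SE 0.11), with overlapping groups. Its dimmest, at 4.88 ± 0.12 and 5.20 ± 0.07 (SD, n = 3), read 0.32 (SE 0.10) without overlap. Those means lie below the array medians of 5.99 to 6.08, so the dimmest is not shown to lie above background.

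Neither the cytochrome c of germ cells nor that of the soma was called, and the value of each depended on single arrays. Cyct read 10.42, 10.59 and 10.62 in wild type and 10.52, 10.48 and 10.17 in transgenic testis, a difference of -0.15 (SE 0.12, 95% interval -0.42 to 0.11) with transgenic replicate 3 the lowest. Cycs read 10.26, 10.75 and 10.68 against 10.53, 10.43 and 10.29, a difference of -0.15 (SE 0.14, 95% interval -0.46 to 0.16) with wild type replicate 1 the lowest. The groups overlapped for both, and the other 3 probe sets of Cycs read -0.04, -0.08 and 0.06. Without transgenic replicate 3 Cyct read -0.04, and without wild type replicate 1 Cycs read -0.30. With the Gapdh covariate both turned sign, to 0.23 (SE 0.18) for Cyct and 0.35 (SE 0.20) for Cycs. To set the isoforms of a pair side by side, the log2 value of the special isoform minus that of its counterpart was taken within each array, and its change from wild type to transgenic is given as a description for the 6 measurable pairs. For Cyct minus Cycs this change was -0.01, and -0.077 to 0.083 without single arrays.

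The 3 testis versions of complex IV subunits read 0.09 to 0.11 above wild type, with intervals that all include 0, and none was called. With the Gapdh covariate the values were 0.03 for Cox6b2, 0.31 for Cox7b2 and 0.09 for Cox8c (SE 0.16, 0.22 and 0.17). Cox6b2, a sperm form of the subunit that faces the intermembrane space where the complex dimerises, read 12.26, 12.19 and 12.28 in wild type and 12.35, 12.31 and 12.39 in transgenic testis. Every transgenic array was above every wild-type array, by a difference of only 0.11 (SE 0.08, 95% interval -0.08 to 0.30). Cox8c read 12.34, 12.34 and 12.32 against 12.46, 12.35 and 12.45, again without overlap, a difference of 0.09 (SE 0.08, 95% interval -0.10 to 0.28). Its dim second probe set, an _x_at one, read 0.45 with overlapping groups. Cox7b2 read 10.93, 11.32 and 11.27 against 11.24, 11.29 and 11.29, where wild type replicate 1 alone was low. The difference was 0.10 (SE 0.12, 95% interval -0.16 to 0.36) and -0.02 without that array.

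Their widespread counterparts read 0.01 and 0.10. Cox6b1 read 9.60, 9.70 and 9.61 against 9.67, 9.62 and 9.65, a difference of 0.01 (SE 0.08). The value of Cox6b2 minus Cox6b1 was larger by 0.10 in transgenic arrays, without overlap, and without wild type replicate 2, the lowest array, the excess was 0.04. Cox8a read 9.10, 9.12 and 9.13 against 9.18, 9.07 and 9.41, a difference of 0.10 (SE 0.10) in which transgenic replicate 3 alone was high. The change of Cox8c minus Cox8a was -0.02. Cox7b2 has no measured counterpart here, since Cox7b lacked a probe set.

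**Figure D3:**
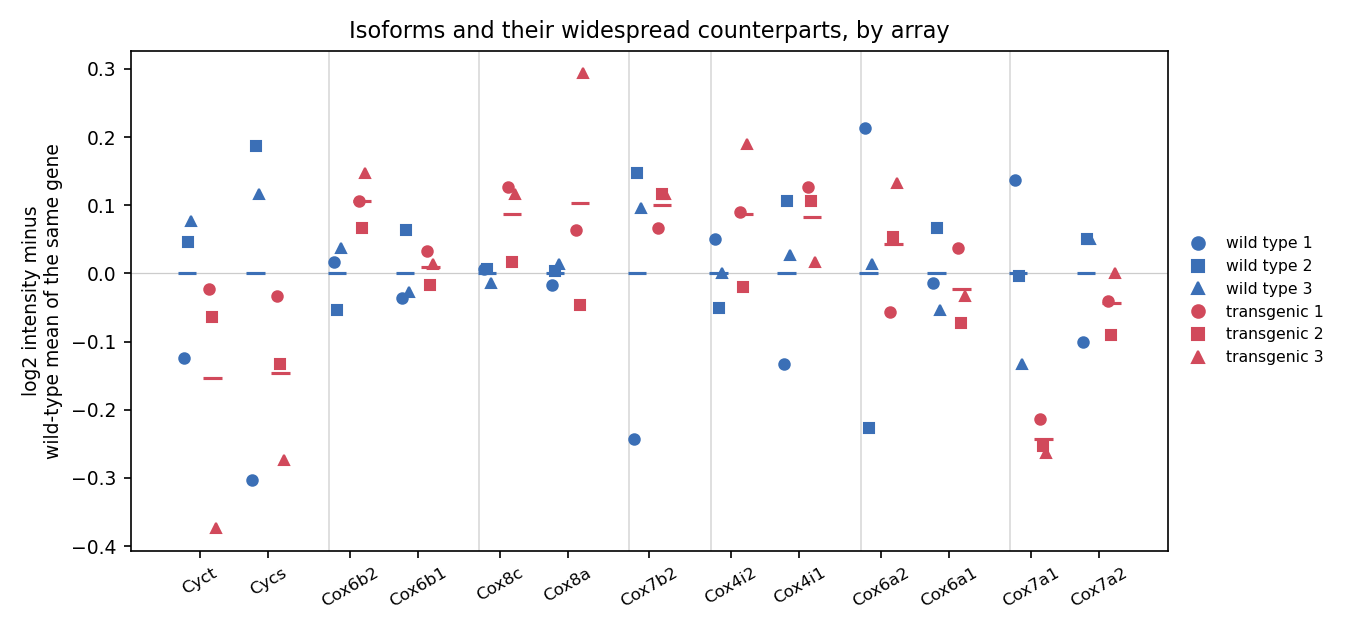
Each array's log2 intensity minus the wild-type mean of the same gene (vertical axis) for the testis, lung and muscle isoforms and, beside each, its widespread counterpart; blue is wild type, red transgenic, the shape gives the replicate number and lines mark group means. Cox6b2, Cox8c and Cox7a1 show no overlap between the genotypes, at 0.11, 0.09 and -0.24, while Cyct and Cycs both sit at -0.15 with overlap.

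The muscle and lung versions included the lowest reading among the brightest probe sets, that of Cox7a1. Cox7a1, the muscle form of the dimer-contact subunit, read 6.07, 5.93 and 5.80 in wild type and 5.72, 5.68 and 5.67 in transgenic testis, without overlap. Its difference was -0.24 (SE 0.10, 95% interval -0.46 to -0.03) and was not called. Its widespread counterpart Cox7a2 read 12.68, 12.83 and 12.83 against 12.74, 12.69 and 12.78, a difference of -0.04 (SE 0.09), and the change of Cox7a1 minus Cox7a2 was -0.20, and -0.08 without wild type replicate 1. Cox6a2 read 7.74, 7.30 and 7.54 against 7.47, 7.58 and 7.66, a difference of 0.04 (SE 0.12), wild type replicates 1 and 2 marking both ends of the range, and its second probe set read -0.23 (SE 0.21). Cox6a1 read 12.29, 12.37 and 12.25 against 12.34, 12.23 and 12.27, a difference of -0.02 (SE 0.09), and the pair's change was 0.07. Cox4i2 read 5.54, 5.44 and 5.49 against 5.58, 5.47 and 5.68, a difference of 0.09 (SE 0.09). Cox4i1, the widespread form of the largest nuclear-encoded subunit, read 12.28, 12.52 and 12.44 against 12.54, 12.52 and 12.43, a difference of 0.08 (SE 0.10), and the pair's change was 0.003. With the Gapdh covariate Cox4i1 read 0.32 and Cox4i2 -0.07 (SE 0.17 for both).

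The widespread subunits of complex IV read close to 0, and none was called. Over the 9 measured, the differences ran from -0.04 to 0.10 with a median of 0.02, and the groups overlapped for the brightest probe set of each. Cox5a and Cox5b, the subunits on the matrix side, read 0.08 and 0.02 (SE 0.10 and 0.09), and all 6 probe sets of Cox5b lay between -0.11 and 0.02, the lowest without overlap between the groups. Cox6c read -0.01 (SE 0.09) and Cox7c, with dim probe sets only, 0.02 (SE 0.09). Cox7a2l, which joins complexes III and IV into supercomplexes, read 0.09 (SE 0.11), and its 3 probe sets lay between 0.06 and 0.09.

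Apart from Cmc2, the assembly factors read between -0.12 and 0.14. Cox10 and Cox15, which make heme A, read 0.08 and 0.03 (SE 0.13 and 0.10). Cox17, Sco1 and Cox11, which hand copper to the complex, read -0.06, -0.12 and -0.08 (SE 0.13, 0.10 and 0.11). Surf1, an early factor of complex IV assembly, read -0.06 (SE 0.11), and Bcs1l, which places the Rieske protein into complex III, 0.14 (SE 0.14). Sco1 read 4.72 ± 0.10 and 4.60 ± 0.10 (SD, n = 3) and no detection call comes with the values, so it is not shown to lie above background. The same limit holds for Cox7c (means 4.55 and 4.57), Cox4i2 (5.49 and 5.58) and Cox7a1 (5.93 and 5.69). Their means lie below the array medians of 5.99 to 6.08. With the Gapdh covariate Cox10 read 0.56, Surf1 0.26 and Cox11 0.19 (SE 0.18, 0.18 and 0.19).

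The other respiratory complexes, further complex III and IV factors and general mitochondrial genes gave 0 calls in 96 measured genes (limma, Benjamini-Hochberg; 4 at an unadjusted p under 0.05; 0.616% of all genes were called). Complex I, which oxidises NADH, had 33 of 36 listed genes measured, 18 above 0 and 15 below, with a median of 0.02. Its smallest p belonged to Ndufa12 (0.31, SE 0.09, limma adjusted p = 0.348) and Ndufs8 (0.22, SE 0.09, adjusted p = 0.724). Complex II had 6 of 8 above 0 and a median of 0.07, with Sdhaf4 at -0.19 (adjusted p = 0.746) and Sdhc at 0.12 (adjusted p = 0.929). ATP synthase had 12 of 17 above 0 and a median of 0.04, with Atp5a1 at 0.10 (adjusted p = 0.946) and Atp5pb at -0.11 (adjusted p = 0.95). Further complex III and IV factors had 14 of 22 above 0 and a median of 0.04. Cox18, which inserts a core subunit of complex IV into the membrane, read 0.34 (SE 0.10, adjusted p = 0.412), and Pet100 0.20 (adjusted p = 0.839). General mitochondrial genes had 10 of 16 above 0 and a median of 0.01, with Slc25a31, the testis ADP/ATP carrier, at -0.33 (SE 0.14, adjusted p = 0.72) and Ppargc1a at 0.30 (adjusted p = 0.79).

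**Figure D4:**
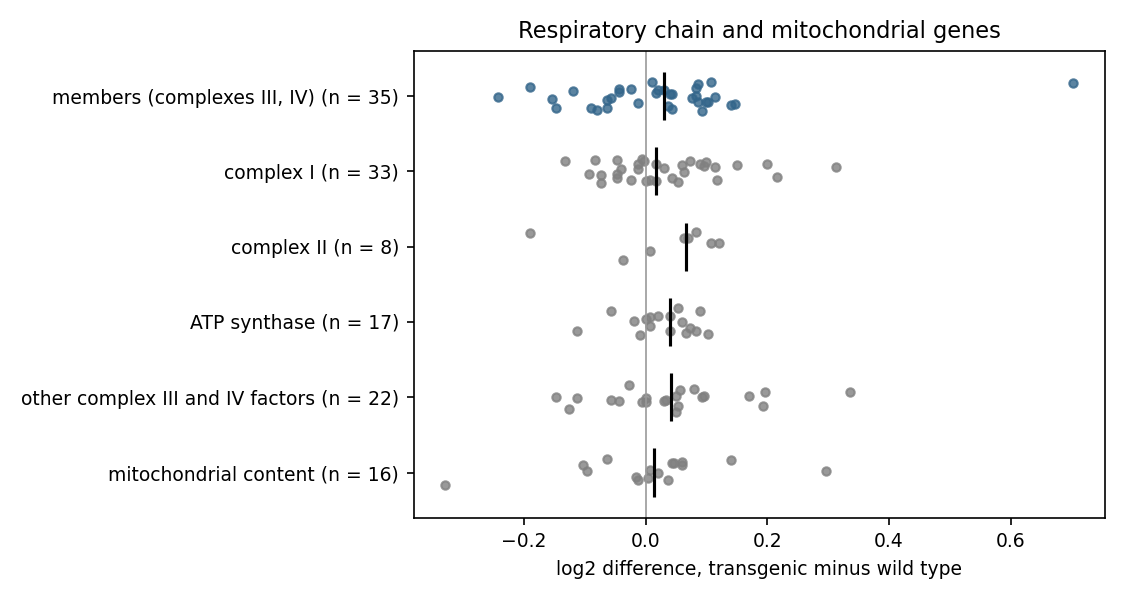
Log2 difference (transgenic minus wild type, horizontal axis) of every measured gene, 1 point per gene by its brightest probe set, for the 35 complex III and IV genes and 5 lists of other mitochondrial genes; black bars mark medians and vertical scatter carries no meaning. All medians lie between 0.01 and 0.07, and Cmc2 at 0.70 is the point farthest from 0.

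Cell-type markers were read beside the isoforms, since the testis forms belong to germ cells. Of 11 measured spermatocyte markers 9 read below 0, beside 7865 of all 18194 genes, and their median was -0.12. The mean level of the list was 10.32 to 10.37 in wild type and 10.13 to 10.20 in transgenic testis, without overlap. With the Gapdh covariate that median was 0.057. None of these markers was called, and 3 had an unadjusted limma p under 0.05, as did 7.48% of all genes. Meiob at -0.58 and Spo11 at -0.38 had the smallest p (limma adjusted p = 0.303 and 0.451). The list was uneven: Sycp1 read -0.41 and Hormad1 -0.21, while Hspa2, Ldhc, Pgk2 and Ccna1 read 0.09, 0.01, -0.02 and -0.02. Round spermatid markers had a median of -0.03 over 9 genes, with list means of 10.97 to 11.02 and 10.89 to 11.03, and elongating spermatid markers had a median of 0.00 over 9, with list means of 13.53 to 13.57 in both genotypes. The part of the spermatocyte reading in the values of Cyct and Cycs was not tested. Skeletal muscle markers, set beside Cox7a1, had a median of 0.07 over 7 genes and list means of 6.12 to 6.53 and 6.35 to 6.43. Peritubular myoid markers had a median of -0.08 over 6 genes, 4 below 0 and 2 above. Their list means were 8.30 to 8.46 in wild type and 8.14 to 8.43 in transgenic testis. None was called, Myh11 at -0.33 and Acta2 at -0.11 having the smallest p (limma adjusted p = 0.612 and 0.932). Over all 13 marker lists the medians ran from -0.12 to 0.20, and 1 of 91 measured genes was called, the Leydig gene Hsd3b1 (1.48, SE 0.13, adjusted p = 0.00109) in a list of 5 with a median of 0.03. Hsd17b3, another Leydig gene, read 0.91 (SE 0.20, adjusted p = 0.146). Besides the spermatocyte list, 3 lists had means that did not overlap, all higher in transgenic testis. Of all 18194 genes, 10329 read above 0 and 12.5% did not overlap by single gene. No such share was taken for list means. Leydig means were 9.19 to 9.49 in wild type and 9.71 to 9.88 in transgenic testis. Of the 5 genes 4 were above 0, and 2 had an unadjusted limma p under 0.05. Leydig genes other than Hsd3b1 and Hsd17b3 read -0.06 (Cyp11a1), 0.03 (Cyp17a1) and 0.01 (Star). Macrophage means were 6.60 to 6.83 and 6.89 to 6.97, with 6 of 6 genes above 0 and 3 at an unadjusted limma p under 0.05. Lyz2 at 0.36 and Csf1r at 0.28 had the smallest p there (limma adjusted p = 0.331 and 0.667). Endothelial means were 5.54 to 5.58 and 5.63 to 5.70, with 5 of 7 genes above 0 and 3 at an unadjusted limma p under 0.05. Tek at 0.47 and Emcn at 0.24 had the smallest p (limma adjusted p = 0.237 and 0.685), while Vwf and Cd34 read -0.20 and -0.21. Macrophage and endothelial medians were not taken with the Gapdh covariate. The part of these marker lists in the values of the respiratory genes was not tested.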

How the data were processed

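Testis RNA of 3 wild-type and 3 transgenic mice was hybridised to 1 Affymetrix mouse array each. What the authors deposited is 1 log2 intensity for each probe set and array. RMA and the affy package appear in the submitters' processing notes, with no version or setting. RMA equalises the arrays' distributions, which hides any shift common to all transcripts, and the values carry no detection call. The genome build is not given in the sources used here.

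All 45037 probe sets other than Affymetrix controls were tested, with no filter on dim ones, by a two-sided moderated test on a linear model (limma 3.58.1 under R 4.3.3). Differences are transgenic minus wild type, and p-values were adjusted by Benjamini-Hochberg, with a threshold of 0.05. Genes were named from the platform annotation by entrez ID, with RefSeq symbols (GRCm38.p6). Errors are SDs over 3 arrays or limma SEs. Members, gene lists and tests were chosen with earlier results of these data known. By rule, per-array values are given for Uqcr10, the isoform pairs, called probe sets and the 5 members of smallest p. In the pathway, spermatocyte, Leydig, peritubular myoid, macrophage and endothelial lists, called genes or else the 2 of smallest p are named. For the other marker lists this naming was not carried through. The neighbours of Uqcr10 and Cmc2, Uqcrq's dimmest probe set, Cox7b2, Sco1 and Hsd17b3 were picked after their values were seen. So were the peritubular myoid list, Vwf, Cd34 and the further spermatocyte and Leydig genes. A planned permutation test of the isoform pairs is not reported, because the members' values were known when they were chosen and 3 against 3 arrays cannot give p under 0.1. The fit was checked on simulated data with independent noise and planted differences larger than those of most members. That check does not speak to differences as small as theirs. The 14 alternatives covered filters, normalization, variance moderation, a replicate block, single arrays left out, probe set choice and RNA integrity.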

Additional observations from a re-analysis of the deposited data

How the results depend on the processing

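Uqcr10's 1434340_at was called in 12 of the 13 settings that hold it, at -2.27 to -2.05, the exception being the Gapdh covariate. Uqcr10 as a gene, 0.04 by its brightest probe set, was -0.93 with its probe sets averaged, -2.16 without probe sets ending in _x_at, _s_at or _a_at, -0.09 with the Gapdh covariate and -0.03 to 0.12 without single arrays. The count of members called was 1 in the main analysis. It was 0 with the Gapdh covariate, 0 to 1 without single arrays, and 2 when those probe sets were left out, which makes 1434340_at the brightest of Uqcr10. With averaged probe sets the 1 call was that of Uqcr10 and not of Cmc2. Fitting the replicate number as a block gave 0 members called, Cmc2 losing its call at an unchanged 0.70, and 117 calls in all against 200. No pairing by number was seen. Deviations of same-numbered arrays correlated at -0.32, -0.07 and -0.01 across probe sets, and 0 of 6 arrays correlated best with their own number. With so few arrays, and wild type replicate 2 standing apart, a modest pairing could be missed this way. The Gapdh covariate left 18 calls in all, 70 to 429 remained without single arrays (429 without wild type replicate 2), trend and robust moderation gave 306, and 200 stood in the main analysis.

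With the Gapdh covariate the member median was 0.085, and medians were 0.17 for complex I, 0.24 for complex II, 0.17 for ATP synthase, 0.34 for other complex III and IV factors, 0.21 for mitochondrial content, 0.50 for Leydig, 0.022 for elongating spermatid, 0.033 for round spermatid, -0.34 for skeletal muscle and 0.057 for spermatocyte markers. The cause was not tested. Without single arrays the ranges were 0.0008 to 0.14 for complex II, -0.022 to 0.018 for elongating spermatid, -0.05 to 0.11 for skeletal muscle and -0.19 to -0.09 for spermatocyte markers. Centring arrays on their median took elongating spermatids to -0.023. Called genes became 1 in complex I with trend and robust moderation (Ndufa12). They became 2 among Leydig markers with the Gapdh covariate and 1 to 2 without single arrays (Hsd17b3 joining). They became 1 among epididymal markers after quantile normalization, median centring, trend and robust moderation and averaging, and 0 to 1 without single arrays (Rnase10).

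Near-zero pair changes turned sign. Cox4i2 minus Cox4i1 was -0.020 after quantile normalization and -0.082 to 0.095 without single arrays. Cox6a2 minus Cox6a1 was -0.07 with averaged probe sets and -0.08 to 0.18 without single arrays. Cox8c minus Cox8a was 0.023 without probe sets ending in _x_at, _s_at or _a_at, 0.20 with averaged ones and -0.057 to 0.063 without single arrays. Cyct minus Cycs was -0.077 to 0.083 without single arrays. Those of Cox6b2 and Cox7a1 kept their sign in the settings run, but no pair change was taken with the Gapdh covariate. Under that covariate Cox6b2 read 0.03 and its counterpart Cox6b1 0.09, while Cox7a1 read -0.30 and Cox7a2 0.02. The sign of the Cox6b2 pair is thus not shown to hold there.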

Other observations

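The nearest measured protein-coding genes, 5 on each side in the order of RefSeq's GRCm38.p6, were read around Uqcr10 and Cmc2 after the values of both were seen. Near Cmc2, 1 of 10 neighbours was called (0.616% of all genes were), Gcsh, which encodes the H protein of glycine cleavage in mitochondria. Gcsh is the fourth such gene from Cmc2 on chromosome 8 and read 7.80, 8.36 and 8.01 in wild type and 9.23, 9.11 and 9.35 in transgenic testis, without overlap. Its difference was 1.17 (SE 0.14, limma adjusted p = 0.00947), so Cmc2 and Gcsh were both higher while the 3 genes between them were not called: Cenpn, whose RefSeq span overlaps that of Cmc2, read 0.08, Atmin 0.11 and 1700030J22Rik -0.12 (limma adjusted p = 0.965, 0.948 and 0.913). The remaining neighbours of Cmc2 read between -0.28 (Cdyl2) and 0.09 (Vat1l). Near Uqcr10 on chromosome 11, 0 of 10 neighbours were called by limma and 3 had an unadjusted p under 0.05 with their brightest probe set (7.48% of all genes did): Lif at -0.41, Hormad2 at -0.25 and Nipsnap1 at 0.27 (adjusted p = 0.451, 0.715 and 0.677). Zmat5, next to Uqcr10, read 0.16 (adjusted p = 0.89).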
